A study of Mus musculus with 10 samples.

Results

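The genes of retinoic acid synthesis, binding and breakdown were followed in hearts of E10.5 mouse embryos with and without the coxsackievirus and adenovirus receptor (CAR). They are 9 named genes: Rdh10, Aldh1a1 and Aldh1a2 for synthesis, Crabp1 and Crabp2 for binding in the cytosol, Rara and Rarb for the nuclear receptors, and Cyp26a1 and Cyp26b1 for breakdown. Each was taken from the rows whose platform annotation names that gene alone, and all 9 were found, each with 1 row, among 19938 genes that have a row of their own. The compared samples were 5 CAR KO and 5 WT samples, each of RNA from 3 pooled hearts (15 hearts per genotype). CAR KO embryos were CAR-/- and WT embryos CAR+/+, bred from CAR+/- parents of the line B6.Cg-Cxadr tm1/Fgr, and no treatment was given to either genotype. The deletion is global and not restricted to a cell type, and the RNA came from all cell types of the heart. The labels do not say which samples shared a litter, so p-values measure only the spread between these samples.

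Retinoic acid is a small signalling molecule made from vitamin A inside cells. Retinol is oxidised to retinal by retinol dehydrogenases such as RDH10, and retinal to retinoic acid by the aldehyde dehydrogenases of the ALDH1A group. Cellular retinoic acid binding proteins carry it in the cytosol, retinoic acid receptors paired with retinoid X receptors act on target genes in the nucleus, and CYP26 enzymes of the cytochrome P450 family degrade it. In the mouse embryo this pathway is known for its part in setting the posterior end of the heart tube, and the epicardium, the outer cell layer of the heart, is a known site of Aldh1a2 expression.

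Some genes of the pathway are textbook targets of the retinoic acid receptors themselves, which bind direct repeats of a half-site. The promoters of the 9 genes were therefore searched for such repeats, and those that hold one are shown because Rarb and Cyp26a1 are common readout genes of retinoic acid signalling in mouse embryos. RefSeq windows (GRCm38.p6) of 300 bases, from 250 before to 50 after a transcription start, were given for 7 of the 9 genes, in 11 windows. Rdh10 and Crabp2 had none. The half-site was taken as AGGTCA or one of its known forms, namely AGTTCA, then also GGGTCA and besides it GGTTCA. Any pair of these in direct repeat with a spacer of 1, 2 or 5 bases was searched on both strands. A repeat was found in the windows of 2 genes, Rarb (chr14:16575427-16575726, minus strand) and Cyp26a1 (chr19:37697558-37697857, plus strand). Both are printed 5′ to 3′ on the strand of the gene, with the half-sites in capitals.
Rarb: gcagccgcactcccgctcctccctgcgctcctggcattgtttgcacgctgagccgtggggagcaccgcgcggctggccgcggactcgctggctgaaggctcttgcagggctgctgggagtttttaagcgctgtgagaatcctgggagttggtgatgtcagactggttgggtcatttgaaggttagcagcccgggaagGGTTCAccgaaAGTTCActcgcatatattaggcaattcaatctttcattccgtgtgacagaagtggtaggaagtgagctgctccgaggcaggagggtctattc
Cyp26a1: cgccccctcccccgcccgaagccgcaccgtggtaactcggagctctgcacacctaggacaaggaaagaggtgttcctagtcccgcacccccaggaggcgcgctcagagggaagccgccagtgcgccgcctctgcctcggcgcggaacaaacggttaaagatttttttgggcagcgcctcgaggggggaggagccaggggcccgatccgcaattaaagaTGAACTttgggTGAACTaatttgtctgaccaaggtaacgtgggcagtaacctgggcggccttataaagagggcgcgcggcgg
In Rarb the repeat reads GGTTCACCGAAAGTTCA and covers the bases from -53 to -37 before the start. In Cyp26a1 it lies on the opposite strand, where it reads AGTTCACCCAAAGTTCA, and covers the bases from -32 to -16. Both have a spacer of 5 bases. Of 32851 windows of the same length over all genes, 32 (0.0974%) hold a repeat with this spacer, and 193 (0.588%) hold one with any of the 3 spacers. A match of letters is a description and not a measured binding site, and windows without a match were searched for these letters only.

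Signals were read from Affymetrix Mouse Gene 1.0 ST arrays, where a transcript cluster, the group of probes laid along the exons of a gene, yields 1 value. Values are on the log2 scale, so a difference of 1 is a doubling, and levels were not compared between genes. The background level was 6.51, the 95th percentile of 1210 clusters of odorant and vomeronasal receptors, and genes with a mean over it are called above background. Differences are CAR KO minus WT, tested with limma over 28944 transcript clusters with Benjamini-Hochberg adjustment. Array medians ran between 7.65 and 7.73, correlations between samples between 0.987 and 0.998, and the number of arrays limits the precision. Cxadr, which encodes CAR, lay between 6.23 and 6.69 in CAR KO samples and between 8.24 and 8.66 in WT samples, a log2 fold change of -1.91 (SE 0.10, adjusted p = 1.40e-05 from limma). The genotypes did not overlap, as the labels require. All 12 cardiomyocyte markers were above background. The first of the list, Tnnt2, cardiac troponin T, lay at 13.83 ± 0.09 in CAR KO and 13.87 ± 0.06 in WT samples (SD, n = 5 each). CAR KO 5, WT 5 and WT 2 were the samples richest in liver and yolk sac transcripts, with means over 16 genes from 6.80 to 9.72 in CAR KO and from 7.33 to 8.89 in WT samples.

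None of the 9 retinoid genes passed an adjusted p of 0.05, where 1 of all clusters did (0.00345%), namely Cxadr. The synthesis enzyme Aldh1a2 had the largest negative difference and the only unadjusted p under 0.05 among them. By direction, 7 of the 9 differences were negative and 2 positive, with a median log2 fold change of -0.09 beside 0.01 over all clusters. The 1 gene with an unadjusted p under 0.05 compares with 1.43% of all clusters at that limit and lower in CAR KO. For 5 of the 9 genes the 95% confidence interval of the difference stayed within a 1.5-fold change in either direction, as it did for 97.3% of all clusters. These were Aldh1a1, Rara, Rarb and Cyp26b1, 4 of the 8 genes above background, and Cyp26a1. The last was below background, so its interval bounds no change in the transcript. The values of the genotypes overlapped for all 9 genes, as they did for all but 0.359% of the clusters (0.238% with CAR KO below WT). Of the 9 genes 8 lay above background, and Cyp26a1 did not.

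**Figure D1:**
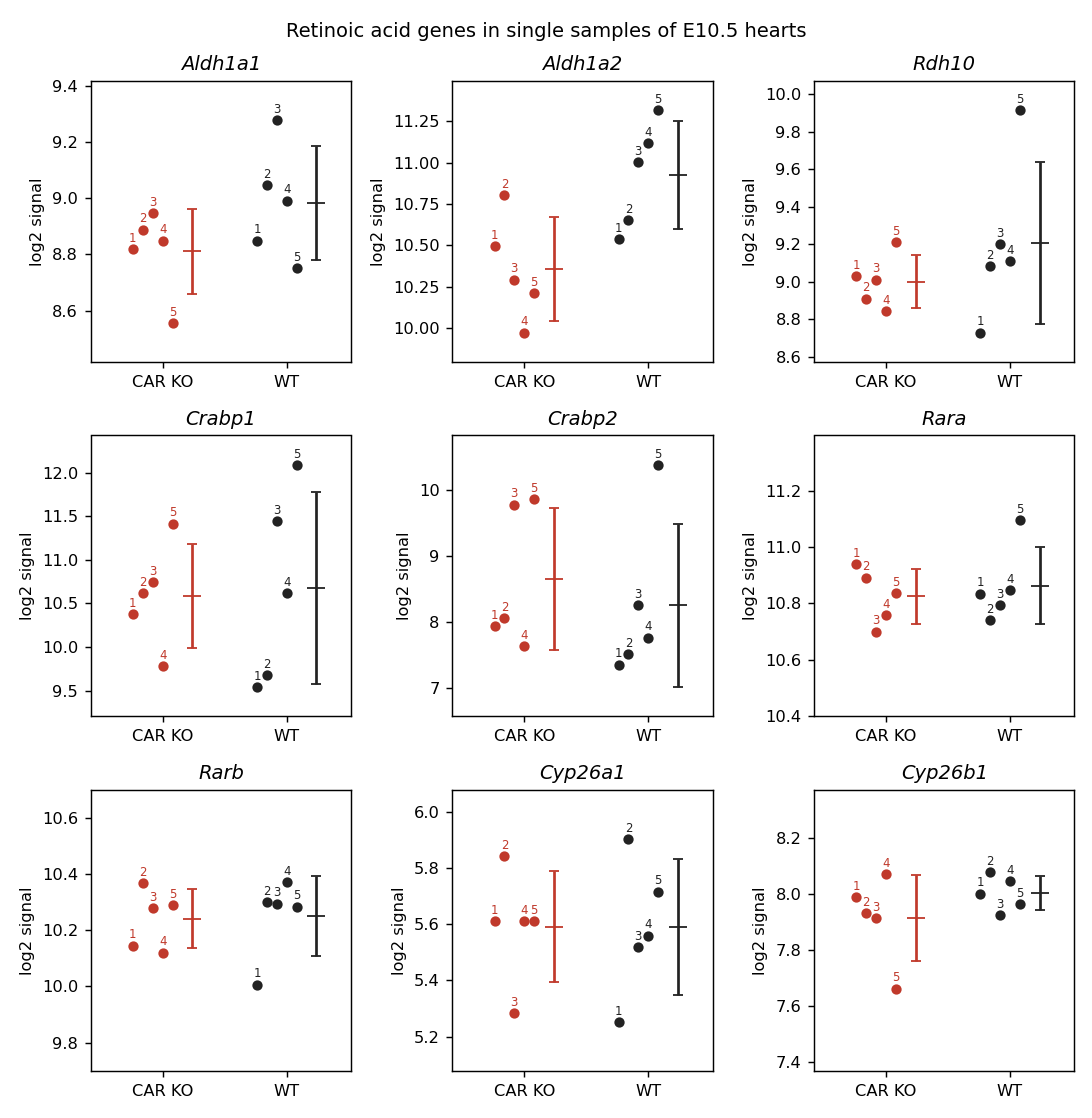
Log2 signal of the 9 retinoid genes in single samples (points, numbered as in the labels), CAR KO left and WT right, with mean and SD (bars, n = 5 each). Axes differ between panels. The 3 highest Aldh1a2 values, 11.002 to 11.31, are WT samples, and Crabp2 is near 10 in CAR KO 3, CAR KO 5 and WT 5 and at most 8.25 in the others.

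**Figure D2:**
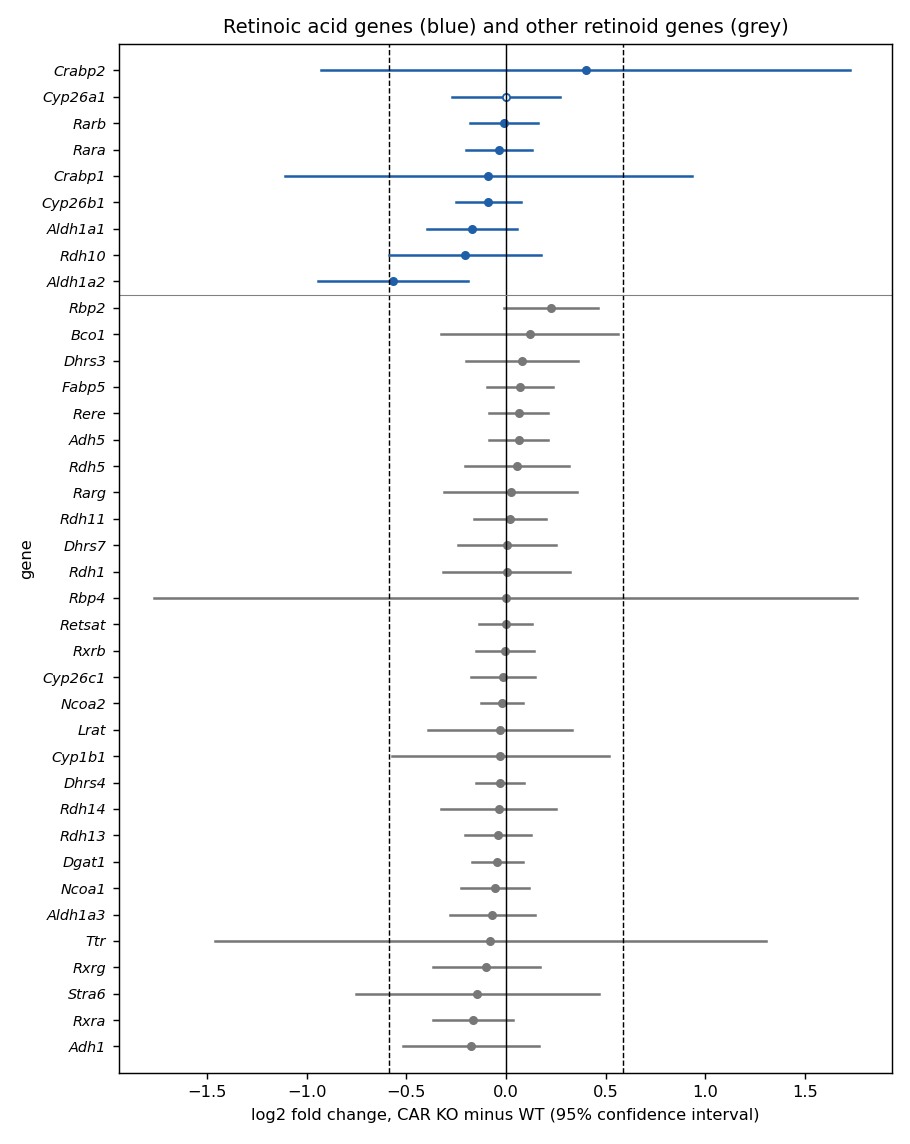
Log2 fold change (CAR KO minus WT, with its 95% confidence interval) of the 9 retinoid genes (blue, Cyp26a1 open because it is below background) and of 29 other retinoid genes above background (grey), with dashed lines at a 1.5-fold change. The interval of Aldh1a2, -0.94 to -0.19, is the 1 interval of the blue genes that does not hold 0, and those of Crabp1, Crabp2, Rbp4 and Ttr are the widest.

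Among the synthesis genes, Aldh1a2 encodes retinaldehyde dehydrogenase 2, the main enzyme of retinoic acid synthesis in the early mouse embryo. Its log2 signals were 10.49, 10.81, 10.29, 9.97 and 10.21 in CAR KO samples 1 to 5, against 10.54, 10.65, 11.002, 11.12 and 11.31 in WT samples 1 to 5. The 4 lowest values were CAR KO samples and the 3 highest WT samples, while CAR KO 2 lay above WT 1 and WT 2, so that the genotypes overlapped. The means were 10.36 ± 0.31 in CAR KO and 10.92 ± 0.32 in WT samples (SD, n = 5 each). The difference was -0.57 (SE 0.17, 95% confidence interval -0.94 to -0.19), a change of -32.5% with an interval from -48.0% to -12.4%. It had an unadjusted p of 0.00663 and an adjusted p of 1.0 from limma, and the two-sided exact permutation test gave p = 0.0317, where 5 samples against 5 cannot go below 0.00794. The mean difference thus was large beside its standard error when the gene was taken alone and did not pass the test over the whole array. It stayed between -0.68 and -0.47 when single samples were left out, with an unadjusted p under 0.05 in all 10 fits. Without CAR KO 5, WT 5 and WT 2 it was -0.49 (unadjusted p = 0.0328), and without both samples numbered 5 it was -0.43 (unadjusted p = 0.0375).

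Because Aldh1a2 is expressed in the epicardium, its values were set beside those of 10 other epicardial and mesothelial genes. Among them, 10 of 10 were above background and 10 of 10 had a negative difference, with a median of -0.21. Some other marker lists also leaned this way, with 9 of 9 macrophage genes negative (median -0.19) and 7 of 9 endothelial genes (median -0.11). Of the macrophage genes 7 were above background. The foregut epithelium list leaned the other way, with 9 of 11 genes positive (median 0.17). Medians of the cardiomyocyte, cushion mesenchyme, liver and yolk sac, neural and neural crest, and erythroid lists lay between -0.06 and 0.0085. Of the 10 epicardial genes, 5 had an unadjusted p under 0.05 from limma, all lower in CAR KO (1.43% of all clusters), and none an adjusted p under 0.05. The first of the list, Wt1, a transcription factor of epicardial cells, had 9.53 ± 0.14 in CAR KO and 9.65 ± 0.10 in WT samples (SD, n = 5 each), a difference of -0.12 (95% confidence interval -0.29 to 0.05). Named after their values were seen, the 5 genes were Upk3b (-0.46), Gpm6a (-0.47), Tbx18 (-0.31), Upk1b (-0.22) and Lrrn4 (-0.20). Upk3b, a uroplakin of mesothelial cells, had 11.85, 12.06, 11.62, 11.71 and 11.28 in CAR KO samples 1 to 5, against 12.02, 12.11, 12.21, 12.24 and 12.24 in WT samples 1 to 5. Of the CAR KO samples only CAR KO 2 reached into the range of the WT samples for this gene. In a bulk sample, fewer cells of a type and less RNA per cell cannot be told apart.

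The mean of the 10 epicardial genes was 9.61, 9.92, 9.70, 9.48 and 9.47 in CAR KO samples 1 to 5, against 9.71, 9.89, 9.96, 9.96 and 9.79 in WT samples 1 to 5. CAR KO 2, the CAR KO sample with the most Aldh1a2, also had the highest epicardial mean of its genotype, and WT 1, the WT sample with the least Aldh1a2, the lowest of its genotype. Across the 10 samples Pearson's r between Aldh1a2 and the epicardial mean was 0.80 (permutation p = 0.00572, adjusted p = 0.0437 over 81 relations between the 9 genes and 9 marker lists). Spearman's rho was 0.85 (permutation p = 0.00267, adjusted p = 0.0400), and r was 0.61 without the 2 samples farthest from the median. The permutations ran across genotypes, so their p-values include that Aldh1a2 and the epicardial mean were both lower in CAR KO. For the deviations from the genotype means r was 0.65, which was not tested. With the epicardial mean as a covariate, an alternative chosen after the data were seen, the difference in Aldh1a2 was -0.26 (unadjusted p = 0.178 from limma). The covariate was itself lower in CAR KO, at 9.64 beside 9.86 in WT samples, so this fit cannot separate it from genotype. What the smaller difference comes from was not tested. WT 5 departed from the relation between Aldh1a2 and the epicardial mean, with the most Aldh1a2 of all samples and a middle epicardial mean.

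Aldh1a1, a related aldehyde dehydrogenase that also oxidises retinal, had 8.82, 8.89, 8.95, 8.85 and 8.56 in CAR KO samples 1 to 5, against 8.85, 9.05, 9.28, 8.99 and 8.75 in WT samples 1 to 5. Both samples numbered 5 were the lowest of their genotype, and 4 of the 5 CAR KO samples lay inside the range of the WT samples. The means of 8.81 ± 0.15 in CAR KO and 8.98 ± 0.20 in WT samples (SD, n = 5 each) differed by -0.17 (95% confidence interval -0.40 to 0.05), with p = 0.175 from the exact permutation test. With single samples left out the difference ran from -0.23 without WT 5 (unadjusted p = 0.0441, adjusted p = 1.0 from limma) to -0.11 without CAR KO 5 (unadjusted p = 0.287) and -0.10 without WT 3 (unadjusted p = 0.315). With the epicardial mean as a covariate it was -0.0075 (unadjusted p = 0.950 from limma). That mean was itself lower in CAR KO, so this fit cannot separate it from genotype, and the cause of the smaller difference was not tested.

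Rdh10, the retinol dehydrogenase that starts the synthesis, had 9.03, 8.91, 9.01, 8.84 and 9.21 in CAR KO samples 1 to 5, against 8.73, 9.08, 9.20, 9.11 and 9.91 in WT samples 1 to 5. WT 5 stood apart as the highest sample, WT 1 was the lowest of all, and CAR KO samples lay between them. The difference was -0.21 (95% confidence interval -0.59 to 0.18; p = 0.421 from the exact permutation test), and it ran from -0.32 without WT 1 (unadjusted p = 0.0676 from limma) to -0.03 without WT 5. Among the 81 relations, Rdh10 varied with the mean of 10 neural and neural crest genes (r = 0.93, permutation p = 0.00326, adjusted p = 0.0308), which was also highest in WT 5, at 7.52 beside 6.87 to 7.02 in the other WT samples and 6.89 to 7.11 in CAR KO samples. The rank correlation was weaker, with rho = 0.66 (permutation p = 0.0430, adjusted p = 0.183), and r was 0.81 without the 2 samples farthest from the median. With the mean of 9 macrophage genes r was 0.84 (adjusted permutation p = 0.0295) and rho 0.81 (adjusted p = 0.0638), and r was 0.51 without the 2 farthest samples. With the mean of 10 cushion mesenchyme genes rho was 0.85 (adjusted permutation p = 0.0400) and r 0.72 (adjusted p = 0.0839).

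The binding proteins spread more between samples of 1 genotype than nearly any other gene. The SD within genotypes was 1.16 for Crabp2 and 0.89 for Crabp1 on the log2 scale, the 99.9th and 99.7th percentile of 14661 genes above background, whose median was 0.13. Rdh10 and Aldh1a2, each with 0.32, lay at the 96.6th and 96.5th percentile. The receptors and Cyp26b1, each with 0.12, and Aldh1a1, with 0.18, lay between the 42.5th and the 76.5th percentile. A percentile here describes these 10 samples and was not tested.

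Crabp1, cellular retinoic acid binding protein 1, had 10.38, 10.62, 10.75, 9.78 and 11.42 in CAR KO samples 1 to 5, against 9.54, 9.68, 11.45, 10.62 and 12.09 in WT samples 1 to 5. WT samples held both the lowest and the highest values, and CAR KO samples lay inside their range. The means were 10.59 ± 0.59 in CAR KO and 10.68 ± 1.11 in WT samples (SD, n = 5 each). The difference was -0.09 (95% confidence interval -1.11 to 0.93, adjusted p = 1.0 from limma), an interval that holds changes of 1.5-fold in both directions, and it was 0.27 without WT 5.

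Crabp1 varied with marker genes of foregut, cushion and neural tissue. With the mean of 11 foregut epithelium genes it had r = 0.89 (permutation p = 0.00076, adjusted p = 0.0172), rho = 0.82 (permutation p = 0.00567, adjusted p = 0.0638) and r = 0.82 without the 2 farthest samples. With the mean of 10 cushion mesenchyme genes r was 0.87 (adjusted permutation p = 0.0172) and rho 0.88 (adjusted p = 0.0400), and with that of the 10 neural and neural crest genes r was 0.84 (adjusted permutation p = 0.00891) and rho 0.85 (adjusted p = 0.0400). The foregut mean itself was 7.74, 8.15, 8.04, 7.58 and 8.50 in CAR KO samples 1 to 5, against 7.47, 7.59, 8.004, 7.72 and 8.42 in WT samples 1 to 5. All 11 foregut genes were above background, and Epcam, an epithelial adhesion molecule and the first of the list, had 7.17 ± 0.54 in CAR KO and 6.77 ± 0.63 in WT samples (SD, n = 5 each). Of the 10 neural and neural crest genes 7 were above background, and Sox10, a factor of migrating neural crest cells, lay between 6.95 and 7.58 in CAR KO and between 7.33 and 7.54 in WT samples. Among CAR KO samples Sox10 ran against Crabp1, lowest in CAR KO 5, which had the most Crabp1, and highest in CAR KO 4, which had the least. Among WT samples it was highest in WT 5, which had the most Crabp1. The part of these tissues in the level of Crabp1 was not tested.

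Crabp2, the binding protein that hands retinoic acid to its nuclear receptors, had 7.94, 8.05, 9.77, 7.64 and 9.85 in CAR KO samples 1 to 5, against 7.35, 7.51, 8.25, 7.76 and 10.37 in WT samples 1 to 5. The values fell into 2 sets, with 3 samples at 9.77 or more (CAR KO 3, CAR KO 5 and WT 5) and 7 samples at 8.25 or less (3 CAR KO and 4 WT). The means of 8.65 ± 1.07 in CAR KO and 8.25 ± 1.24 in WT samples (SD, n = 5 each) differed by 0.40 (95% confidence interval -0.93 to 1.73), or by 32.02% with an interval from -47.4% to 231%. The interval holds changes of 1.5-fold in both directions. Single samples set much of this value, which ran from 0.10 without CAR KO 5, 0.12 without CAR KO 3 and 0.18 without WT 1 to 0.93 without WT 5 (unadjusted p = 0.0722 from limma). Without both samples numbered 5 it was 0.63 (unadjusted p = 0.156).

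Over all 10 samples Crabp2 had rho = 0.94 with the foregut mean (adjusted permutation p = 0.0121 over 81 relations). With the neural and neural crest mean rho was 0.93 (adjusted permutation p = 0.0146). Against Crabp1 it was 0.93 (adjusted permutation p = 0.0104 over 36 pairs). For the endothelial mean r was -0.85 (adjusted permutation p = 0.0308) and rho -0.71 (adjusted p = 0.127). Because of the 2 sets, correlations were also taken within the lower set, which the values of Crabp2 itself define. This split was chosen after those values were seen, so its p-values describe these 7 samples only. Within the 7 samples of the lower set, Crabp2 varied with Crabp1 (r = 0.94, exact permutation p = 0.00278, adjusted p = 0.0248 over 10 relations; rho = 0.89, adjusted p = 0.0410) and with the foregut mean (r = 0.90, exact permutation p = 0.00496, adjusted p = 0.0248; rho = 0.93, adjusted p = 0.0410). Without the 2 samples farthest from the median these were 0.84 and 0.95. With the neural and neural crest mean r in the lower set was 0.83 (exact permutation p = 0.0240, adjusted p = 0.0600). With the mean of 7 erythroid genes Crabp2 ran the opposite way in these 7 samples (r = -0.86, adjusted exact permutation p = 0.0384, and rho = -0.89, adjusted p = 0.0410). This r weakened to -0.57 without the 2 farthest samples. Over all 10 samples the erythroid relation did not hold, with r = 0.04 and rho = -0.33 (adjusted permutation p = 0.565 for rho). Of the 3 samples in the upper set, CAR KO 5 and WT 5 had the 2 highest foregut means, while CAR KO 3, at 8.04, lay below CAR KO 2, at 8.15, which was in the lower set. The foregut mean alone therefore did not separate the sets.

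**Figure D3:**
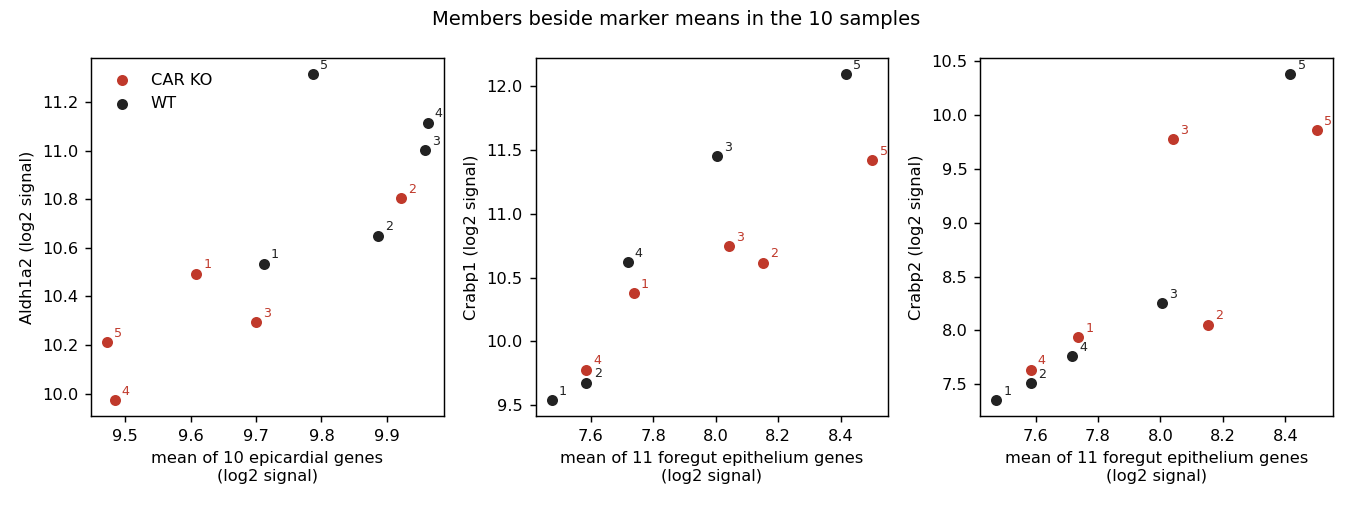
Aldh1a2 against the mean of 10 epicardial genes (left), Crabp1 (middle) and Crabp2 (right) against the mean of 11 foregut epithelium genes, all as log2 signal, 1 point for each CAR KO (red) and WT (black) sample with its number. WT 5 has the most Aldh1a2 and a middle epicardial mean. Crabp1 is highest in WT 5, followed by WT 3 (11.45) and CAR KO 5 (11.42). CAR KO 5 and WT 5 have the 2 highest foregut means, while that of WT 3, 8.004, is below those of CAR KO 2 and CAR KO 3. Crabp2 shows 3 samples near 10 apart from 7 at 8.25 or less.

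The receptors were among the steadiest of the 9 genes. Rara, which encodes retinoic acid receptor alpha, had 10.94, 10.89, 10.70, 10.76 and 10.84 in CAR KO samples 1 to 5, against 10.83, 10.74, 10.79, 10.85 and 11.10 in WT samples 1 to 5. WT 5 was the highest, and the other WT samples lay inside the range of the CAR KO samples. The difference was -0.04 (95% confidence interval -0.20 to 0.13), and without WT 5 it was 0.02.

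Rarb, which encodes retinoic acid receptor beta and whose promoter carries the repeat printed above, had 10.14, 10.37, 10.28, 10.12 and 10.29 in CAR KO samples 1 to 5, against 10.01, 10.30, 10.29, 10.37 and 10.28 in WT samples 1 to 5. WT 1 was the lowest and WT 4 the highest sample, and all CAR KO samples lay between them. The means were 10.24 ± 0.10 in CAR KO and 10.25 ± 0.14 in WT samples (SD, n = 5 each). The difference was -0.01, with a 95% confidence interval from -0.18 to 0.16 that excludes a 1.5-fold change in either direction. Its sign changed with the samples left out, between -0.07 and 0.02.

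Of the breakdown enzymes, Cyp26b1 was measured above background. It had 7.99, 7.93, 7.91, 8.07 and 7.66 in CAR KO samples 1 to 5, against 8.0006, 8.08, 7.92, 8.04 and 7.96 in WT samples 1 to 5. CAR KO 5 was the lowest, and the other CAR KO samples lay almost inside the range of the WT samples. The difference was -0.09 (95% confidence interval -0.25 to 0.07), and it was -0.03 without CAR KO 5 and -0.01 without CAR KO 5, WT 5 and WT 2 together. Cyp26b1 ran along with the mean of 9 endothelial genes (r = 0.86, permutation p = 0.00594, adjusted p = 0.0437; rho = 0.73, adjusted p = 0.113), and opposite to the foregut mean (r = -0.79, permutation p = 0.00176, adjusted p = 0.0238; rho = -0.81, adjusted p = 0.0638). All 9 endothelial genes were above background, with means from 10.92 to 11.37 in CAR KO and from 11.11 to 11.40 in WT samples, lowest in CAR KO 5 and WT 5.

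Cyp26a1, the other gene with a repeat in its promoter, was below the background level in every sample. Its values ran from 5.28 to 5.84 in CAR KO and from 5.25 to 5.90 in WT samples, with a difference of 0.0015 (95% confidence interval -0.27 to 0.27). Values at this level carry no order, and a difference in the transcript was not detectable on these arrays.

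**Figure D4:**
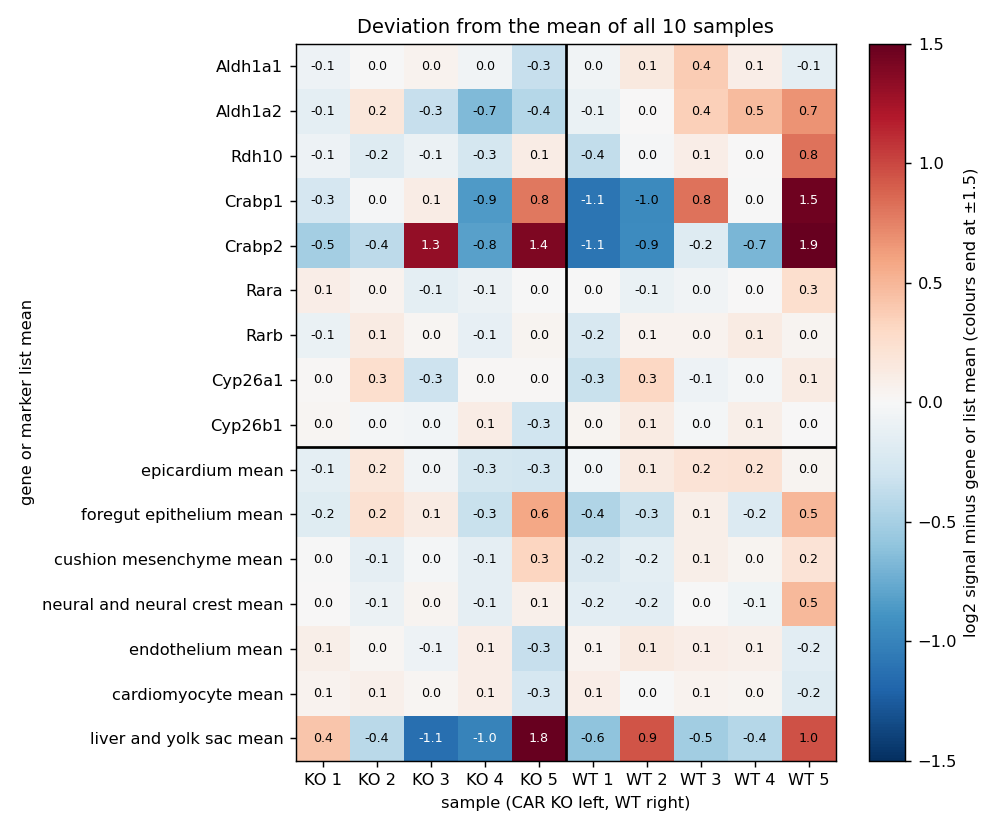
Deviation of each retinoid gene and of 7 marker list means from the mean of all 10 samples, in log2 units, with CAR KO samples left and WT samples right. Crabp1 and Crabp2 have the strongest colours among the genes, and CAR KO 5 and WT 5 share high Crabp1, Crabp2, foregut and liver values and low endothelial and cardiomyocyte values.

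Across the samples the retinoid genes did not move as 1 block. Of 36 pairs among the 9 genes, Rdh10 and Crabp1 had r = 0.82 (permutation p = 0.00091, adjusted p = 0.0328; rho = 0.79, adjusted p = 0.102), which was 0.67 without the 2 farthest samples, and no other pair of genes without Crabp2 passed an adjusted p of 0.05 for r or rho.

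The genes most like 7 of the 9 genes, all above background, were looked up by the correlation of deviations from the genotype means, over 10 samples and 14653 genes. They are the top of a long search and are given as a description. Aldh1a2 was followed most closely by Pxk (r = 0.93), Marchf11 (0.92) and Dbp (0.92), and Aldh1a1 by Washc2 (0.95), Rtn4 (0.95) and Tceal6 (0.94). For Rdh10 they were Dnm3, the third retinoic acid receptor gene Rarg and Nsg1, with r of 0.97 to 0.98. Crabp1 was most like Elovl4 (0.99), Pdgfc (0.98) and Ebf3 (0.98). Crabp2 was left out because of its 2 sets of samples. Rara was closest to Scarf2 (0.97), Zfyve26 (0.95) and Bach2 (0.94), Rarb to Zfp128 (0.98), Ndufa4l2 (0.96) and Pfdn5 (0.93), and Cyp26b1 to Trim35 (0.99), Col23a1 (0.98) and Mgst3 (0.98).

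Other genes of retinoid uptake, storage, oxidation and reception were counted in the same way. Of 45 symbols, 1 of them an older name of Bco1, 41 had a cluster of their own and 29 were above background. With limma, none passed an adjusted p of 0.05 and none had an unadjusted p under 0.05 (2.40% of all clusters had one), with 21 differences positive, 20 negative and a median of 0.0025. The 3 brightest were Adh5, an alcohol dehydrogenase (0.06), Dhrs4, a retinal reductase (-0.03), and Fabp5, a fatty acid binding protein that also binds retinoic acid (0.07). For 38 of the 41 genes (26 of the 29 above background) the 95% confidence interval stayed within a 1.5-fold change, as it did for 97.3% of all clusters. The other 3, named after their values were seen, were the retinol carrier Rbp4, its blood partner Ttr and the retinol uptake receptor Stra6. Rbp4, which is made in liver and yolk sac, had 8.99, 7.57, 6.79, 6.63 and 10.88 in CAR KO samples 1 to 5, against 7.05, 9.22, 7.33, 7.44 and 9.81 in WT samples 1 to 5, high where the mean of the 16 other liver and yolk sac genes was high. Stra6 had 9.56 in WT 5 and between 7.83 and 8.38 in all other samples.

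Genes known to respond to retinoic acid in embryos were counted too. Of 32 symbols 27 had a cluster of their own and 26 were above background. With limma, none passed an adjusted p of 0.05, and 1 had an unadjusted p under 0.05, lower in CAR KO (1.43% of all clusters), with 11 differences positive, 16 negative and a median of -0.0045. This gene was Foxc1, a forkhead factor of mesoderm, with 8.39, 8.18, 8.28, 8.36 and 7.79 in CAR KO samples 1 to 5, against 8.24, 8.47, 8.50, 8.43 and 8.64 in WT samples 1 to 5. CAR KO 5 was the lowest, and WT 1 lay among the CAR KO samples. The difference was -0.25 (95% confidence interval -0.50 to -0.01, unadjusted p = 0.0453 and adjusted p = 1.0 from limma). The 3 brightest of these genes were Meis2, a homeobox factor (-0.08), Tgm2, a transglutaminase (-0.16), and Tbx5, a T-box factor of the posterior heart (-0.0024). The intervals of 19 of the 27 genes stayed within a 1.5-fold change, beside 97.3% of all clusters, and among the 8 that did not was Hoxa2, singled out after its values were seen, at 9.89 in WT 5 and between 6.14 and 7.63 in all other samples.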

How the data were processed

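RNA of E10.5 hearts was measured in 5 CAR KO and 5 WT samples, each of 3 pooled hearts, and genotypes were taken from the labels. The authors deposited 1 table of log2 signals from Mouse Gene 1.0 ST arrays with 35556 rows. The submitters' processing notes name MAS5, and for normalization before deposit and for a genome build the sources used here name nothing. Values were used as deposited, so their scaling could enter every difference. Gene coordinates are therefore left out, and promoter windows come from RefSeq (GRCm38.p6).

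Removing 6612 control rows left 28944 transcript clusters, which were fitted by lmFit and eBayes of limma 3.58.1 (R 4.3.3; no trend, no filter, Benjamini-Hochberg adjustment, threshold 0.05). Genes with several rows kept the brightest that names no other gene. All 9 genes matched RefSeq by Entrez identifier. Intervals are 95%, unadjusted. Single genes were also compared by two-sided exact permutation tests (252 splits), correlations by permutation with 100000 resamples (exact for 7 samples). The fit was tested on simulated data. Plots used matplotlib 3.10.9.

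The 9 genes and all lists were chosen with earlier results of these data known. Named were the 9 genes, Cxadr, in the 2 further retinoid lists the 3 brightest genes and those with an unadjusted p under 0.05, the first gene of each marker list, and the 3 genes most correlated with each of the 9 other than Cyp26a1, which is below background, and Crabp2, left out after its values were seen. Other names are said to be chosen after their values were seen. The alternatives tried were array weights, quantile normalization, centring of arrays, removal of clusters under the 40th percentile, testing clusters of 1 gene alone, a robust prior with intensity trend, the methods' t-test applied to all clusters, a block for sample number, and omission of single samples. Covariates (the liver and yolk sac mean, or the epicardial mean) and omission of the 3 liver-rich samples or of both samples numbered 5 were chosen after seeing the data. Experiments on cultured cells were not analysed here.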

Additional observations from a re-analysis of the deposited data

Results flagged for a closer look

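In a group of 5 samples, a sample was marked when its gap to the nearest other sample, divided by the range of the group, was above 0.71 (Dixon's limit). Of 36 groups examined (the 9 retinoid genes and 9 marker means in each genotype) 5 were marked, where chance marks about 1 in 20 groups. Rarb was marked in WT 1, at 10.01 beside 10.28 to 10.37 in the other WT samples (ratio 0.761). The other 4 are marker means. The cardiomyocyte mean was low in CAR KO 5, at 12.57 beside 12.85 to 12.92 (ratio 0.791), and the endothelial mean in WT 5, at 11.11 beside 11.31 to 11.40 (ratio 0.711). The neural and neural crest mean was high in WT 5, at 7.52 beside 6.87 to 7.02 (ratio 0.771), the sample with the most Rdh10, Crabp1 and Crabp2. The erythroid mean was low in WT 3, at 11.27 beside 11.74 to 11.90 (ratio 0.759).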

How the results depend on the processing

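None of the 22 alternative fits called any of the 9 retinoid genes, any other retinoid gene or any retinoic acid responsive gene, and the median over the 9 genes stayed within the spread between samples. Unadjusted counts moved: array weights gave 4 other retinoid genes, 1811 of all clusters and 2 called clusters; centring gave 1 and quantile normalization 2 other retinoid genes; the methods' t-test gave 0 responsive genes. With the epicardial mean as a covariate 0 of the 9 genes and 0 responsive genes had an unadjusted p under 0.05, without both samples numbered 5 there were 3 other retinoid and 3 responsive genes, and without CAR KO 5, WT 5 and WT 2, rich in liver transcripts, these were 3 and 2, with 1214 of all clusters. Leaving out single samples gave 1 to 2 of the 9 genes, 0 to 2 other retinoid genes, 0 to 3 responsive genes (3 without WT 5, 0 without CAR KO 3, CAR KO 5, WT 2, WT 3 or WT 4) and 411 to 1029 of all clusters, lowest without WT 4.

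Differences near 0 changed sign. Rara was 0.017 with array weights and 0.018 without both samples numbered 5. Cyp26a1 was -0.0050 with centring and -0.025 with quantile normalization, and the filter on dim clusters removed it. Crabp1 was 0.058 with the epicardial covariate and also 0.058 without both samples numbered 5. Rarb was 0.12 with that covariate and 0.0045 without the liver-rich samples. Without single samples Crabp1 ran from -0.37 to 0.27, Rara from -0.068 to 0.021, Rarb from -0.072 to 0.019 and Cyp26a1 from -0.083 to 0.080. The cause of these changes was not tested. Using another cluster of a gene gave no value, since each gene has 1.

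Samples of the same number had deviations that correlated between 0.07 and 0.56, with 1 of 5 pairs under 0.1. Of the samples, 4 of 5 CAR KO and 3 of 5 WT correlated best with their own number. The labels name no pairs, so the main fit did not take the numbers as pairs. Whether samples of the same number shared a litter was not tested, and the p-values of the main fit may ignore a pairing. With the replicate number as a block, 2 of the 9 genes (Aldh1a2, unadjusted p = 0.0162, and Aldh1a1, unadjusted p = 0.0175, adjusted p = 0.969 each from limma) and 3 other retinoid genes had an unadjusted p under 0.05. Of all clusters 1304 had one, beside 696 in the main fit.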

Other observations

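Marker genes of other cell types are given here as values. Of 10 cushion mesenchyme genes 2 had an unadjusted p under 0.05, lower in CAR KO (1.43% of all clusters). Among them was Sox9, the first of the list and a factor of valve and cushion mesenchyme. It lay at 11.29 ± 0.10 in CAR KO and 11.50 ± 0.10 in WT samples (SD, n = 5 each). Over the whole cushion mesenchyme list 6 differences were negative and 4 positive, with a median of -0.021. Of 9 macrophage genes 2 had an unadjusted p under 0.05, as did 1 of 12 cardiomyocyte genes and 1 of 11 neural and neural crest genes, all lower in CAR KO. Of the endothelial, foregut, liver and yolk sac, and erythroid lists 0 genes had one in either direction (2.40% of all clusters), and none of the marker genes had an adjusted p under 0.05 from limma. Csf1r, a macrophage growth factor receptor, had a difference of -0.30 and Pecam1, an endothelial adhesion molecule, of -0.14. Hba-x, an embryonic globin, differed by -0.05 and Alb, serum albumin, by -0.86, with 8.98 ± 2.87 in CAR KO and 9.84 ± 1.98 in WT samples (SD, n = 5 each).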
